A study of Mus musculus with 25 samples.

Results

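The genes of cholesterol and fatty acid synthesis were followed in WNK1-deficient and control thymocytes. The set was a fixed list of 36 genes in 4 roles, chosen with earlier results of these data known. It held 18 enzymes of sterol synthesis, 6 genes of sterol sensing and transport, and 8 of fatty acid synthesis and desaturation. The other 4 were genes of sterol efflux and its regulation by LXR nuclear receptors. Of the 48795 genes in the deposited table, 35 were found as members and 34 passed a minimum mean of 10 normalised counts. Hmgcs1 could not be paired with an identifier and was not analysed here, and Scd1, with 0 to 29.4 normalised counts in the 25 libraries, was not tested. The lowest mean of a tested member was 326 normalised counts (Pmvk), so the minimum decided the place of no other member. A normalised count is the number of reads of a gene divided by the size factor of its library.

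DN3 and DN4 thymocytes, the CD4-CD8- stages on either side of the pre-TCR checkpoint, were sorted as Thy1.2+ CD44- cells from mice aged 7 to 8 weeks. Every mouse lacked RAG1 (Rag1-/-), which stops thymocytes at DN3 until CD3ε is cross-linked, and carried CD2-Cre, a transgene expressed in lymphoid cells. Control mice were Wnk1 fl/+ (HET) and WNK1-deficient mice were Wnk1 fl/fl (KO), so the controls had also lost 1 Wnk1 allele wherever Cre acted. Mice were uninjected (0 h) or had received 150 µg of anti-CD3ε 3, 24 or 48 h earlier. There were 3 mice in each group and 4 in KO at 0 h, and each library was made from 1 mouse in 1 experiment.

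Cells build cholesterol from acetyl-CoA through mevalonate, isoprenoids, squalene and lanosterol. When membrane sterol is low, SCAP carries the precursor of the transcription factor SREBP2 (Srebf2) to the Golgi, where it is cut and released to switch on the enzymes, and INSIG proteins hold it back when sterol is plentiful. SREBP1 (Srebf1) acts in the same way with more weight on fatty acid synthesis. Oxysterols that accumulate with sterol activate LXR, which raises the efflux pumps ABCA1 and ABCG1. T cells that enter division draw on both synthetic routes for membrane.

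The libraries held 22527777 to 57304830 reads assigned to genes, with a median of 36567984. Wnk1 was lower in KO at every time, with 5407 to 20719 normalised counts over all HET libraries and 3037 to 9046 over all KO libraries and with no overlap at any time. The defining thymocyte genes were abundant (9 of 9 found, summed level 155700.0 to 549061 normalised counts). Among genes of other cells, granulocyte genes summed to at most 19.99 normalised counts and dendritic cell genes to at most 263, while the 4 B cell genes summed to 544 to 2607 in HET and 376 to 1163 in KO, and Cd79b, the 1 of them tested, was lower in KO at every time (log2 difference -1.69 to -0.88). In the mean over times 4 of 5 NK and innate lymphoid genes (Ncr1, Klrb1c, Eomes, Il7r and Zbtb16) were higher in KO and 5 of 9 thymocyte genes lower. Of all genes 20% were higher and 20.5% lower. At 24 h the NK and innate lymphoid genes summed to 4138 to 5847 in HET and 7757 to 10022 in KO, and the stroma and vessel genes to 5959 to 12408 and 12422 to 12896. At 48 h the thymic epithelium genes summed to 304 to 498 in HET and 943 to 1525 in KO. The part of these lists in the results was not tested. Mice at 0 and 48 h expressed Xist (10920.0 to 45580.0) and mice at 3 and 24 h the Y-linked genes (summed level 3704 to 7577), so 3 h and 0 h differ in sex as well as in treatment. At 0 h all HET libraries were run in sequencing lane 1 and all KO libraries in lane 2, so that genotype and lane cannot be told apart there. Within a group, lanes 1 and 2 met only in HET at 48 h, where replicate 3 was alone in lane 1. Lanes 1 and 3 met only in KO at 48 h, where replicate 3 was alone in lane 3. At 0 h, at 48 h or between 0 h and later times, a lane covariate cannot tell lane from these mice. In sorted cells, less RNA per cell and fewer cells of a type cannot be told apart.

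The sterol enzymes as a group lay lower in KO than in HET, the fatty acid genes lay closer together, and of the efflux genes Abca1 and Abcg1 lay higher. The mean log2 level of the 17 tested sterol enzymes, set to 0 for HET at 0 h, was -0.06 to 0.05 in the HET libraries and -0.53 to -0.39 in the KO libraries at 0 h. At 3 h it was -0.27 to 0.32 in HET and -0.39 to -0.26 in KO, and the groups overlapped slightly. At 24 h it was -0.05 to 0.08 in HET and -0.61 to -0.44 in KO. At 48 h both genotypes were low, at -1.15 to -0.32 in HET and -0.97 to -0.59 in KO. The 7 fatty acid genes differed less, with group means of 0.00 in HET and -0.09 in KO at 0 h, -0.22 and -0.45 at 24 h, and -0.50 and -0.44 at 48 h. The 4 efflux genes were at -0.01 to 0.01 in HET and 0.51 to 0.65 in KO at 0 h, and at -1.50 to -1.16 in HET and -0.15 to 0.30 in KO at 24 h. At 48 h the efflux groups overlapped, at -0.17 to 0.92 in HET and 0.40 to 1.22 in KO. These group levels are descriptions, and tests were made gene by gene.

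**Figure D1:**
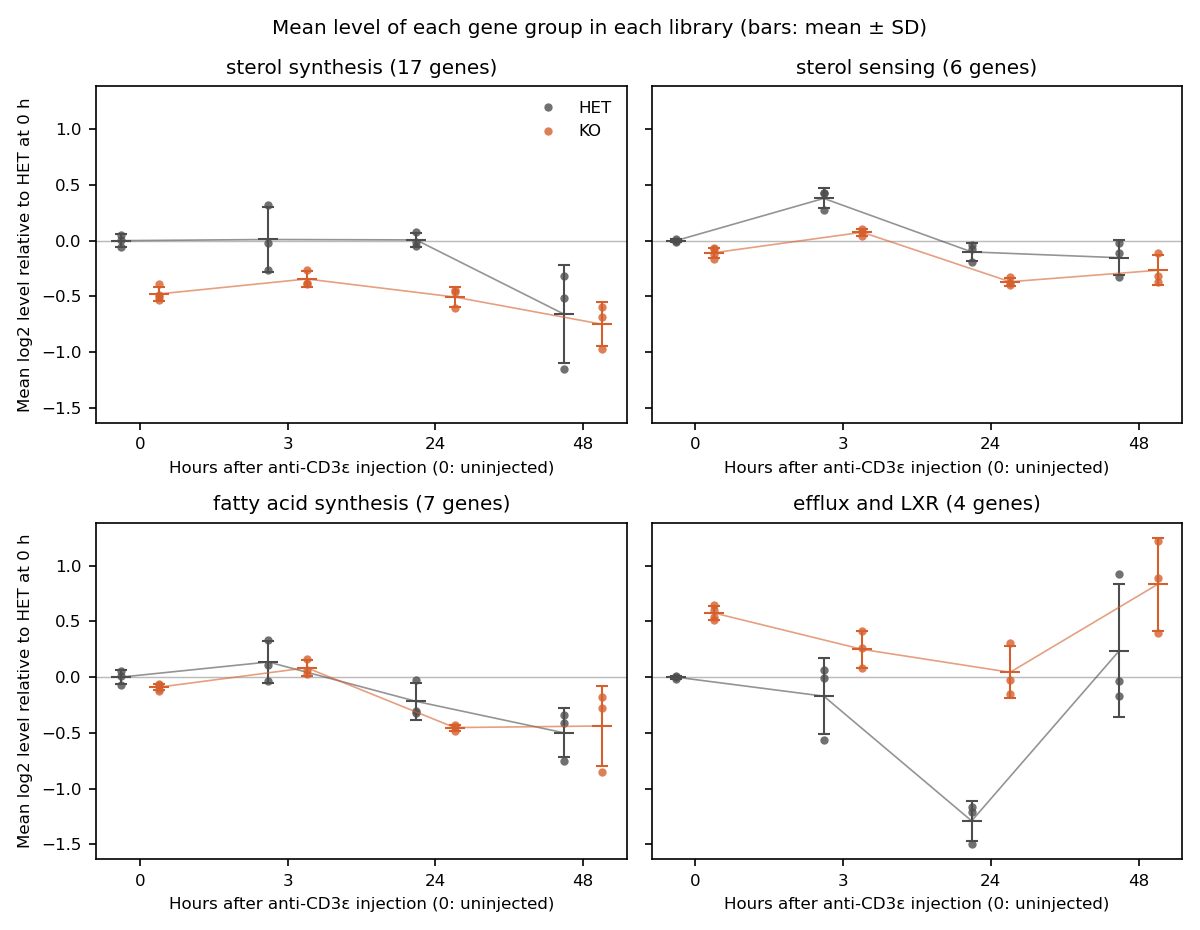
Mean log2 level of the tested genes of each role relative to HET at 0 h (y axis) against hours after anti-CD3ε injection (x axis, evenly spaced), with 1 point per library, HET in grey, KO in orange, lines joining the means, and bars for the mean ± SD of 3 or 4 libraries. Sterol synthesis in KO sits below HET at 0 and 24 h, fatty acid synthesis overlaps at 0, 3 and 48 h and lies lower in KO at 24 h, and efflux in HET falls to between -1.50 and -1.16 at 24 h.

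In the mean genotype difference over the 4 times, 15 of the 34 tested members were lower in KO and 4 were higher, where 20.5% of the 14141 genes tested were lower and 20% were higher. The test was limma on log2(normalised count + 1) with Benjamini-Hochberg adjustment over all genes at 0.05, as for all adjusted p-values given here. Sterol synthesis gave most of this: 12 of 17 enzymes were lower, 1 was higher and 4 did not pass, with a median log2 difference of -0.39 against -0.01 for all genes. Of the 6 sensing genes 2 were lower and 0 higher (median -0.18). Of the 7 fatty acid genes 1 was lower and 1 higher (median -0.04). Of the 4 efflux genes 2 were higher and 0 lower (median 0.31). Differences between roles were not tested.

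**Figure D2:**
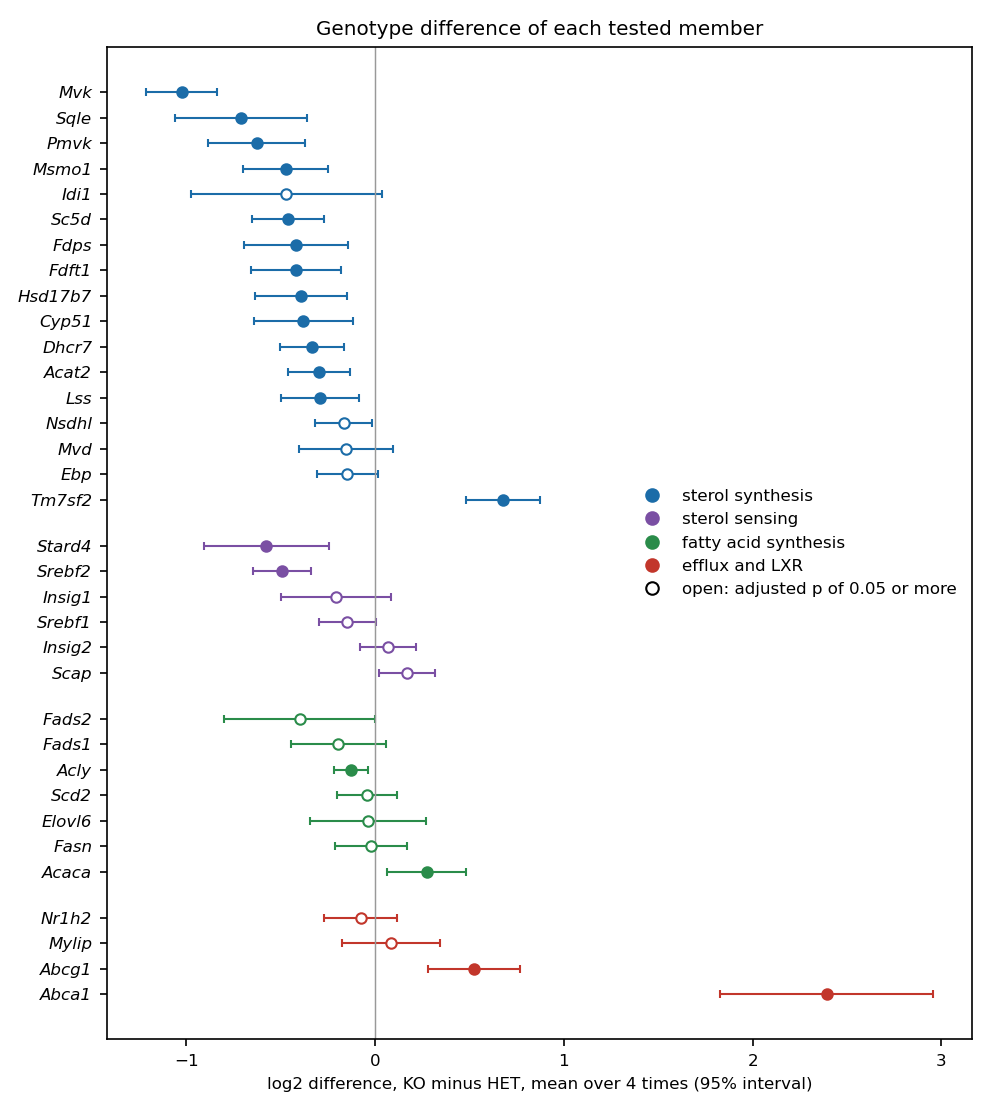
Log2 difference between KO and HET, averaged over the 4 times (x axis), for each tested member (y axis) with its 95% interval, coloured by role and filled where the adjusted p was under 0.05. Sterol enzymes lie left of 0 apart from Tm7sf2 at 0.68, and Abca1 stands far to the right at 2.39. Fatty acid genes lie between -0.40 (Fads2) and 0.27 (Acaca), 6 of the 7 below 0.

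At 0 h, before any stimulus, 6 members were lower in KO and 1 was higher (all genes: 11.1% lower, 11% higher). The 9 thymocyte genes also summed lower in KO at this time (493991 to 549061 in HET, 319262 to 385181 in KO), and their part in the result was not tested. Of the 17 sterol enzymes 5 were lower and 0 were higher, and 16 of the 17 had a difference below 0 (median -0.47, all genes -0.002). At 3 h, 3 members were lower and 1 was higher (all genes: 3.43% lower, 5.75% higher), each of the 4 a sterol enzyme, with a median of -0.48 over the 17. All KO libraries of 3 h were run in lane 4 and those of HET in lanes 3, 3 and 4, and with lane as a covariate 3 members were higher and 1 lower, of which 2 were among the 4 (Sc5d and Tm7sf2). A fit of the 2 groups alone kept 0 of the 4 (limma, adjusted p = 0.0606 to 0.136). At 24 h, 5 members were lower and 3 were higher (all genes: 5.45% lower, 7.03% higher), and the median of the sterol enzymes was -0.49. The thymocyte genes were again lower in sum (212076 to 285986 in HET, 155700.0 to 194621 in KO), with 3 of 9 called lower. Without 3 libraries that stood apart in earlier work on these data (HET replicate 3 of 3 h and of 24 h, KO replicate 3 of 48 h) the 24 h count was 5. At 48 h, 2 members were lower and 2 higher (all genes: 6.95% lower, 6.13% higher), near the background, and the median of the sterol enzymes was -0.08. The mean sterol level was -1.15 in HET replicate 3 and -0.97 in KO replicate 2. The other libraries were at -0.51 and -0.32 in HET and at -0.685 and -0.595 in KO. These low libraries were picked out after the values were seen, and the difference without both was not tested.

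The first steps after mevalonate is made are 2 kinases. Mevalonate kinase (Mvk) was the enzyme with the largest mean difference. At 0 h, Mvk had 967, 979.8 and 814 in HET and 355, 439, 455 and 372 in KO. At 3 h, Mvk had 425, 343 and 339 in HET and 260.0, 230.1 and 244 in KO. The KO libraries were below all HET libraries of the same time, and both genotypes were lower than at 0 h. At 24 h, Mvk had 734, 1019.7 and 706 in HET and 322, 319 and 387 in KO. At 48 h, Mvk had 443, 690.0 and 446 in HET and 206, 259.6 and 263 in KO. Again the groups did not overlap, and at 24 h both genotypes overlapped their own uninjected range. The log2 difference was -1.18 at 0 h (SE 0.17, adjusted p = 7.02e-05), -1.24 at 24 h (adjusted p = 0.000171) and -1.09 at 48 h (adjusted p = 0.00062). Over the 4 times it was -1.02 (SE 0.09, adjusted p = 2.69e-08), a 2.03-fold lower level in KO. The call at 3 h (-0.59, adjusted p = 0.0491) was lost when any 1 of the 6 libraries was left out (adjusted p up to 0.155). With sequencing lane as a covariate the 48 h difference was -0.94 and no longer passed (adjusted p = 0.0642).

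Phosphomevalonate kinase (Pmvk) catalyses the next step. At 0 h, Pmvk had 289, 369.5 and 278 in HET and 156, 151, 145 and 200.3 in KO. At 3 h, Pmvk had 469, 220.5 and 244 in HET and 182, 189 and 272 in KO. KO lay apart and lower at 0 h and the genotypes overlapped at 3 h. At 24 h, Pmvk had 662, 732 and 529 in HET and 452, 422 and 408 in KO. At 48 h, Pmvk had 321, 469.9 and 265 in HET and 243, 260.3 and 212 in KO. All HET libraries were above all KO libraries at both later times. The difference was -0.93 at 0 h (SE 0.24, adjusted p = 0.00737) and -0.63 over the 4 times (SE 0.12, adjusted p = 0.000422). With lane as a covariate the 0 h difference was -1.48 and did not pass (adjusted p = 0.0627). Mvd, which makes isopentenyl diphosphate, and Idi1, its isomerase, did not pass at any time or in the mean. Their mean differences were -0.15 (-0.41 to 0.10) and -0.47 (-0.98 to 0.04), the brackets giving 95% intervals. At 48 h Idi1 ranged from 469 to 1848 in HET and from 449 to 2351 in KO.

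Farnesyl diphosphate synthase (Fdps) and squalene synthase (Fdft1) lead from isoprenoids to squalene. At 0 h, Fdps had 4586, 4574 and 3962 in HET and 3213, 3059, 3300.1 and 3022 in KO. At 3 h, Fdps had 4975, 3612 and 3033 in HET and 2867, 2912 and 3414 in KO. KO lay apart and lower at 0 h, and the genotypes overlapped at 3 h. At 24 h, Fdps had 4217, 4693 and 4970.3 in HET and 2525, 2855 and 2702 in KO. At 48 h, Fdps had 2368, 3294 and 1021 in HET and 1531, 1698 and 2396 in KO. The genotypes were apart at 24 h and overlapped at 48 h, when HET replicate 3 was the lowest of all libraries. At 0 h, Fdft1 had 1971, 1809.7 and 1601 in HET and 1196, 1194, 1298 and 1111 in KO. At 3 h, Fdft1 had 2954, 1783 and 1441 in HET and 1198, 1275 and 1578 in KO. Again the genotypes were apart at 0 h and overlapped at 3 h. At 24 h, Fdft1 had 1689, 2182 and 1859.9 in HET and 1199, 1526 and 1358 in KO. At 48 h, Fdft1 had 1208, 1573 and 721 in HET and 1097, 1085 and 1013 in KO. KO was lower without overlap at 24 h and overlapped HET at 48 h. Neither gene passed at a single time, and in the mean over times they were lower by 0.42 (SE 0.13, adjusted p = 0.015) and 0.42 (SE 0.11, adjusted p = 0.00572). Fdft1 overlaps the coding gene Ctsb in the annotation, and the authors' counting used strand.

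Squalene epoxidase (Sqle), a rate-limiting enzyme of the pathway, was lower in KO up to 24 h in every library. At 0 h, Sqle had 2313, 2453 and 2598 in HET and 2090.0, 1442, 1661 and 1578 in KO. At 3 h, Sqle had 5202, 4976 and 4347 in HET and 2355, 2695 and 2978 in KO. Every HET library exceeded every KO library at both times. At 24 h, Sqle had 1870.2, 1785 and 2584 in HET and 872, 1012 and 870.2 in KO. At 48 h, Sqle had 1443, 1354 and 473 in HET and 1147, 411 and 1099 in KO. The groups were apart at 24 h and overlapped at 48 h, with HET replicate 3 and KO replicate 2 far below the others. The mean difference was -0.71 (SE 0.17, adjusted p = 0.00196) and the difference at 24 h was -1.16 (SE 0.34, adjusted p = 0.0292). The 24 h call was lost in 5 of the 6 fits that left out 1 library (adjusted p up to 0.114). Lanosterol synthase (Lss) closes the sterol rings. At 0 h, Lss had 1227, 1128 and 1158 in HET and 787, 707, 743 and 776 in KO. At 3 h, Lss had 1631, 1361 and 872 in HET and 916, 1045 and 1032 in KO. KO was apart and lower at 0 h and within the HET range at 3 h. At 24 h, Lss had 1148, 1244 and 1388 in HET and 1082, 1195 and 1212 in KO. At 48 h, Lss had 981, 1190.3 and 639 in HET and 1076, 748 and 761 in KO. The genotypes overlapped at both. Lss was lower at 0 h (-0.64, SE 0.19, adjusted p = 0.0211) and in the mean (-0.29, adjusted p = 0.0248), and the 0 h call was lost without HET replicate 1 or 2 or KO replicate 2 of 0 h (adjusted p up to 0.0827). The call in the mean was lost with a common total (adjusted p = 0.0847) and without HET replicate 1 of 3 h or HET replicate 2 of 48 h (adjusted p up to 0.0522).

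**Figure D3:**
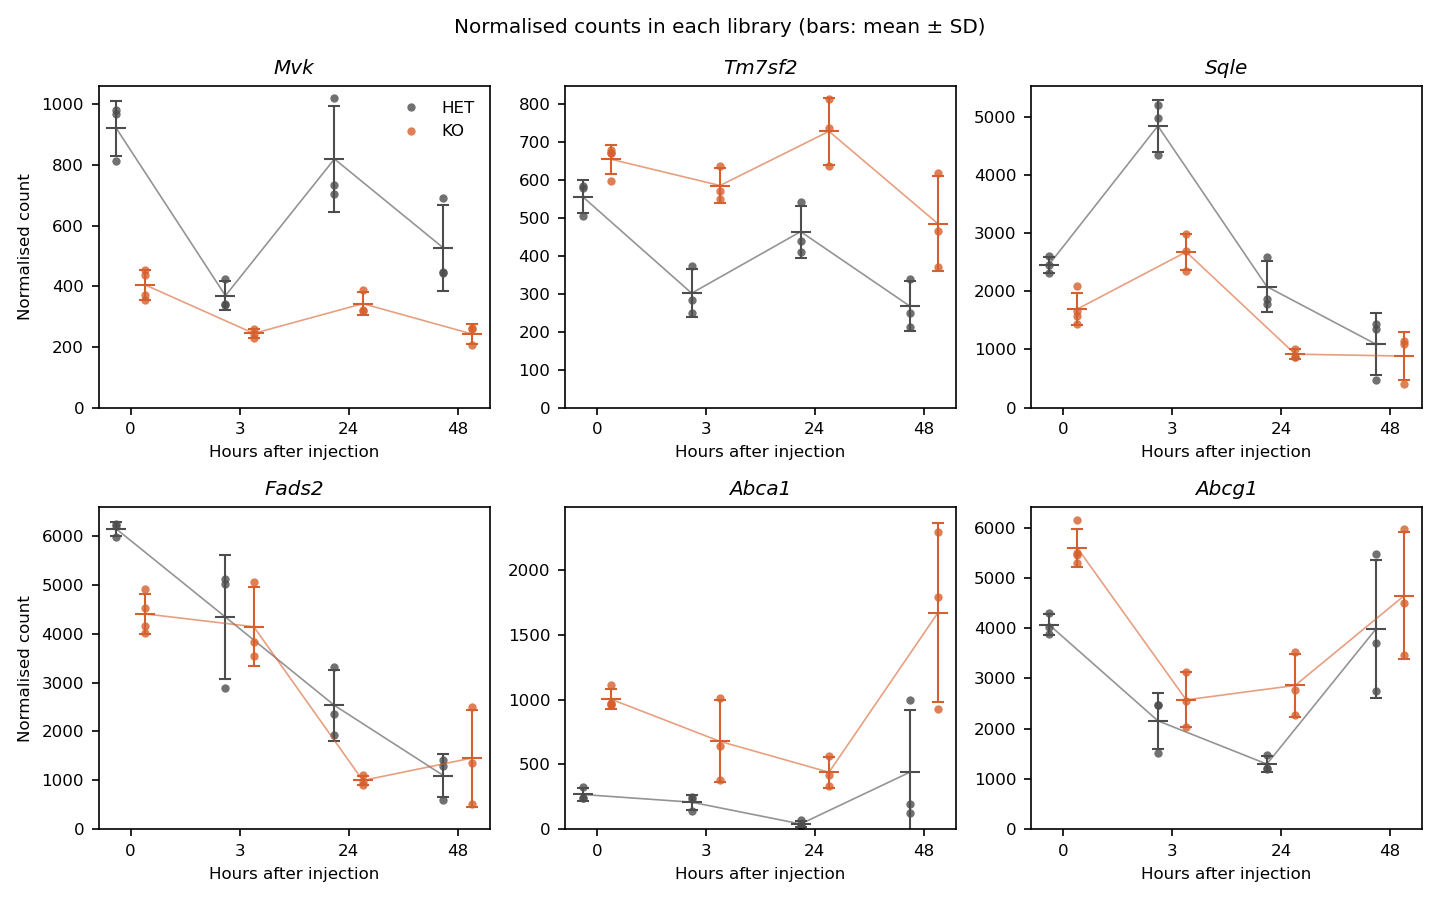
Normalised counts (y axis, from 0) of 6 members against hours after injection (x axis, evenly spaced), with 1 point per library, HET in grey, KO in orange lines joining the means and bars for mean ± SD, of which the bar of Abca1 in HET at 48 h is cut at 0. Mvk in KO lies below HET at every time, Tm7sf2 above it at every time, Sqle below it to 24 h, Fads2 falls in both, and Abca1 in KO exceeds HET apart from 1 HET library of 995 at 48 h.

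After lanosterol, a series of demethylations and reductions leads to cholesterol. Lanosterol demethylase (Cyp51) rose in both genotypes 3 h after the injection. At 0 h, Cyp51 had 1949.8, 2043 and 2105 in HET and 2123, 1428, 1566 and 1698 in KO. At 3 h, Cyp51 had 5542, 4841 and 4188 in HET and 3241, 3078 and 3523 in KO. The genotypes overlapped at 0 h, where KO replicate 1 was highest, and were apart at 3 h. At 24 h, Cyp51 had 2952, 2550.1 and 2922 in HET and 1528, 2132 and 1760.1 in KO. At 48 h, Cyp51 had 1803, 1946 and 782 in HET and 1729, 944 and 1518 in KO. KO was apart and lower at 24 h and overlapped HET at 48 h. The mean difference was -0.38 (SE 0.13, adjusted p = 0.02), and with a common total the adjusted p was 0.0562. Msmo1, the C4 methyl oxidase, is the next enzyme given. At 0 h, Msmo1 had 1146, 1323 and 1162 in HET and 1297, 829, 809.5 and 937 in KO. At 3 h, Msmo1 had 2829, 2233 and 1409 in HET and 1126, 1229 and 1181 in KO. HET was apart and higher at 3 h but not at 0 h. At 24 h, Msmo1 had 1224, 1038 and 1330.4 in HET and 681, 877 and 819 in KO. At 48 h, Msmo1 had 935, 874 and 565 in HET and 757, 621 and 731 in KO. The groups were apart at 24 h and overlapped at 48 h. The difference was -0.81 at 3 h (SE 0.22, adjusted p = 0.0223), a call lost in 5 of 6 fits without 1 library (adjusted p up to 0.112), and -0.47 in the mean (adjusted p = 0.00155).

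Hsd17b7, the 3-keto sterol reductase, had the largest fall after 3 h among the sterol enzymes. At 0 h, Hsd17b7 had 443, 480.4 and 485 in HET and 340.3, 305, 276 and 303 in KO. At 3 h, Hsd17b7 had 1211, 1193 and 806 in HET and 627, 783 and 692 in KO. KO was below HET at both times without overlap. At 24 h, Hsd17b7 had 279, 218 and 395 in HET and 207, 194 and 214 in KO. At 48 h, Hsd17b7 had 311, 278 and 183 in HET and 389, 203 and 259.7 in KO. The groups were narrowly apart at 24 h and overlapped at 48 h. The mean difference was -0.39 (SE 0.12, adjusted p = 0.0104), with no call at a single time. Lathosterol oxidase (Sc5d) passed at 2 times. At 0 h, Sc5d had 728, 731 and 794 in HET and 732, 714, 611 and 779 in KO. At 3 h, Sc5d had 1851, 1517 and 1235 in HET and 779, 865 and 960.1 in KO. The genotypes overlapped at 0 h, and every HET library was above every KO library at 3 h. At 24 h, Sc5d had 1239, 1076 and 1176 in HET and 701, 677 and 697 in KO. At 48 h, Sc5d had 919, 761 and 637 in HET and 797, 454 and 790.2 in KO. KO was apart and lower at 24 h and overlapped at 48 h. The differences were -0.81 at 3 h (SE 0.19, adjusted p = 0.00792), -0.75 at 24 h (SE 0.19, adjusted p = 0.0112) and -0.46 in the mean (adjusted p = 0.000407).

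Dhcr7, the reductase of 7-dehydrocholesterol, was the 1 member that passed the test of a genotype difference changing with time. At 0 h, Dhcr7 had 8203, 7740.1 and 6681 in HET and 3260.2, 3761, 4031 and 3436 in KO. At 3 h, Dhcr7 had 4279, 3596 and 2598 in HET and 2744, 3269.6 and 3415 in KO. HET was above KO without overlap at 0 h, and the ranges overlapped at 3 h. At 24 h, Dhcr7 had 2977, 3898 and 3139.8 in HET and 2869.6, 3251 and 3176 in KO. At 48 h, Dhcr7 had 2804, 3734 and 2532 in HET and 2593, 3144 and 2922 in KO. The groups overlapped at both later times as well. The difference was -1.06 at 0 h (SE 0.16, adjusted p = 8.02e-05), and -0.13, -0.10 and -0.05 at 3, 24 and 48 h. The F test of the 3 interaction terms gave F = 9.32 (adjusted p = 0.0363), and 1.47% of all genes passed this test against 1 of 34 members. The count of members called fell to 0 in 13 of the 25 fits that left out 1 library and was 3 without KO replicate 2 of 48 h (limma, with 3 to 6 members at an unadjusted p under 0.05 where it was 0). With lane as a covariate Dhcr7 was not called, and edgeR and DESeq2 each called 1 member. At 0 h, where the difference of Dhcr7 was largest, genotype and lane cannot be told apart. Acat2, cytosolic thiolase, which joins acetyl-CoA at the head of the pathway, had small differences. At 0 h, Acat2 had 1706, 1808 and 1682 in HET and 1562, 1353, 1318 and 1230.2 in KO. At 3 h, Acat2 had 1163, 864 and 1044 in HET and 888, 786 and 791 in KO. KO was lower without overlap at 0 h, and the groups overlapped at 3 h. At 24 h, Acat2 had 1689, 1499 and 1739.7 in HET and 1113, 1313 and 1163 in KO. At 48 h, Acat2 had 1122, 1346 and 849 in HET and 942, 882 and 1316 in KO. The groups were apart at 24 h and overlapped at 48 h. The mean difference was -0.30 (SE 0.08, adjusted p = 0.00525).

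Tm7sf2, one of the reductases of the sterol C14 double bond, went the other way. At 0 h, Tm7sf2 had 584, 578 and 506 in HET and 598, 678, 672 and 669.7 in KO. At 3 h, Tm7sf2 had 372, 283 and 249 in HET and 635, 549 and 571 in KO. All KO libraries were above all HET libraries at both times. At 24 h, Tm7sf2 had 439.8, 541 and 410.1 in HET and 636, 735 and 813 in KO. At 48 h, Tm7sf2 had 250.042, 339.6 and 213 in HET and 370.3, 464 and 618 in KO. The order was the same, and HET had fallen from its uninjected level by 48 h. The difference was 0.97 at 3 h (SE 0.19, adjusted p = 0.00256), 0.65 at 24 h (adjusted p = 0.0297), 0.85 at 48 h (adjusted p = 0.00617) and 0.68 in the mean (SE 0.10, adjusted p = 9.89e-06). The 24 h call was lost in 4 of 6 fits without 1 library (adjusted p up to 0.119), and in a fit of the 2 groups alone each of the 3 single-time calls was lost (adjusted p = 0.0606, 0.0705 and 0.175). Tm7sf2 overlaps the coding gene Vps51. Nsdhl, a sterol dehydrogenase, was lower at 0 h (-0.41, adjusted p = 0.0341), a call lost in 6 of 7 fits without 1 library (adjusted p up to 0.136), and not in the mean (-0.17, adjusted p = 0.069, 95% interval -0.32 to -0.02). Ebp, the sterol isomerase, passed at no time, with a mean difference of -0.15 (-0.31 to 0.01). Both lie on the X chromosome.

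Promoters are shown because SREBP2 binds a sterol regulatory element, usually beside CCAAT boxes bound by NF-Y and GC boxes bound by SP1. RefSeq promoters (GRCm38.p6) were given for 27 of the 34 tested members, and the 250 bases before the outermost start site of each gene were searched on both strands. Abcg1, Fads1, Fdft1, Fdps, Scd2, Sqle and Stard4 had no entry. The letters TCACNCCAC were in 0 of the 27 windows and in 1.03% of 27025 promoters searched in the same way. Allowing 1 mismatch, a choice made after the exact matches were seen, 9 of 27 windows matched, or 33.3% against 20.4% of all promoters. They were 5 of 14 sterol enzymes, 2 of 5 sensing genes, 1 of 5 fatty acid genes and 1 of 3 efflux genes. CCAAT was in 12 of the 14 sterol enzyme windows (85.7%), in 4 of 5 sensing genes, in 1 of 5 fatty acid genes, in 1 of 3 efflux genes and in 34.5% of all promoters. GGGCGG was in 13 of the 14 (92.9%), in 2 of 5 sensing genes, 2 of 5 fatty acid genes, 2 of 3 efflux genes and 33% of all promoters. The promoters searched were not limited to genes above the minimum mean, which the members had passed, so the 2 sets are unlike. A match describes letters only and is not a bound site. The stretches with a match of at most 1 mismatch are given here for the 4 sterol enzymes and 2 sensing genes that, among members with such a match, were called in the most comparisons, on the strand of the gene, with the matched letters in capitals.
Acat2, chr17:12960859-12960947, minus strand: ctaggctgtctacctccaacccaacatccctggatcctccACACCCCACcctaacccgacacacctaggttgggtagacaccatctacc
Hsd17b7, chr1:169969274-169969362, minus strand: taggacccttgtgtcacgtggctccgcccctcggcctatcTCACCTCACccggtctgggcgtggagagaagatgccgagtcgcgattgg
Msmo1, chr8:64733707-64733795, minus strand: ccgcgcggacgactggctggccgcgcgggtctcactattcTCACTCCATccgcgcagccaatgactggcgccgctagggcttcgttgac
Cyp51, chr5:4104757-4104845, minus strand: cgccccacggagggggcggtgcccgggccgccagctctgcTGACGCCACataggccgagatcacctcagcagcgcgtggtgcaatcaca
Srebf2, chr15:82147067-82147155, plus strand: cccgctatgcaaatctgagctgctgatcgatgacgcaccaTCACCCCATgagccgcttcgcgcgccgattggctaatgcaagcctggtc
Insig1, chr5:28071363-28071411, plus strand, with the match on the opposite strand: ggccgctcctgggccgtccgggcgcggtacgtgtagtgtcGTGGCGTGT
The matches began 182, 117, 177, 108, 162 and 9 bases before the start site. Hsd17b7 and Msmo1 each held 3 CCAAT boxes in the window, Cyp51, Srebf2 and Insig1 held 1 each, and Acat2 held 0.

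Among the sensing genes, Srebf2 itself was lower in KO. At 0 h, Srebf2 had 13332, 13077 and 13214 in HET and 8259, 9554, 9039 and 7416 in KO. At 3 h, Srebf2 had 17118, 18456 and 16264 in HET and 12541, 13077 and 14889.6 in KO. KO was below HET without overlap, and both genotypes were higher at 3 h. At 24 h, Srebf2 had 9775, 13692 and 11144 in HET and 8084, 9106 and 8636 in KO. At 48 h, Srebf2 had 11132, 15392 and 9788 in HET and 7675, 7215 and 9272 in KO. The groups did not overlap at these times either. The difference was -0.63 at 0 h (SE 0.14, adjusted p = 0.003), -0.57 at 48 h (adjusted p = 0.0156) and -0.49 in the mean (SE 0.07, adjusted p = 2.17e-05). The 48 h call was lost without HET replicate 2 or KO replicate 1 at that time (adjusted p up to 0.111) and with lane as a covariate (-0.40, adjusted p = 0.326). Stard4 carries cholesterol between membranes. At 0 h, Stard4 had 1889, 2055 and 2209.5 in HET and 2465, 1911, 1723 and 1799 in KO. At 3 h, Stard4 had 2819, 2558 and 2335 in HET and 1452, 1370.4 and 1002 in KO. The genotypes overlapped before the injection and were apart 3 h after it. At 24 h, Stard4 had 2068, 971 and 2313 in HET and 1257, 604 and 612 in KO. At 48 h, Stard4 had 1748, 804 and 1193 in HET and 958, 867 and 1611 in KO. The ranges overlapped at both. Stard4 was lower at 24 h (-1.11, SE 0.32, adjusted p = 0.0289), a call lost in 4 of 6 fits without 1 library (adjusted p up to 0.135), and in the mean (-0.58, adjusted p = 0.00653).

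The other 4 sensing genes passed in no genotype comparison. Srebf1 had a mean difference of -0.15 (95% interval -0.30 to 0.00), Insig1 of -0.21 (-0.50 to 0.08), Insig2 of 0.07 (-0.08 to 0.21) and Scap of 0.17 (0.02 to 0.32). Srebf1 overlaps the coding gene Rai1.

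Of the 7 fatty acid genes, Fads2 passed at 24 h and Acly and Acaca passed in the mean over times. ATP-citrate lyase (Acly), which makes cytosolic acetyl-CoA for both routes, had a small difference. At 0 h, Acly had 12443, 11458 and 11827 in HET and 11597, 11723, 11559 and 11102 in KO. At 3 h, Acly had 13711, 14367 and 12670.3 in HET and 13013, 12901 and 14078 in KO. The genotypes overlapped at both. At 24 h, Acly had 14583, 14808 and 14116 in HET and 12581, 13774 and 12328 in KO. At 48 h, Acly had 13244, 15820.4 and 13018 in HET and 11875, 11335 and 11668 in KO. KO was narrowly below HET without overlap at these times. The mean difference was -0.13 (SE 0.04, adjusted p = 0.0245), and it was -0.01 after quantile normalization (adjusted p = 0.932) and -0.07 after scaling to a common total (adjusted p = 0.209). Acetyl-CoA carboxylase (Acaca) commits acetyl-CoA to fatty acids. At 0 h, Acaca had 3028, 3488 and 4034 in HET and 3497, 4149, 3622 and 3865 in KO. At 3 h, Acaca had 3415, 3833 and 2919.9 in HET and 4623, 4218 and 4955 in KO. KO was higher without overlap at 3 h. At 24 h, Acaca had 3301, 3122 and 5577 in HET and 3808, 4523 and 3777 in KO. At 48 h, Acaca had 2965, 3074 and 2024 in HET and 4255, 2704 and 4293 in KO. Groups overlapped at both, with HET replicate 3 highest at 24 h. The mean difference was 0.27 (SE 0.10, adjusted p = 0.0372), lost in 13 of 25 fits without 1 library (adjusted p up to 0.0739). Acaca overlaps the coding genes Gm11437 and Tada2a.

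The desaturase Fads2, which begins the making of polyunsaturated fatty acids, had the largest called fall over time of any member, from 0 to 48 h in HET. At 0 h, Fads2 had 6250.1, 6204 and 5971 in HET and 4009, 4526, 4923 and 4166 in KO. At 3 h, Fads2 had 5117, 5023 and 2880.1 in HET and 3823, 3539.6 and 5064 in KO. HET was higher without overlap at 0 h, though the difference did not pass (-0.48, adjusted p = 0.358). At 24 h, Fads2 had 1919.6, 2352 and 3323 in HET and 1105, 911 and 969 in KO. At 48 h, Fads2 had 1282, 1415 and 591 in HET and 1359, 513 and 2491 in KO. KO was lower without overlap at 24 h (-1.31, SE 0.39, adjusted p = 0.0301), a call lost in 4 of 6 fits without 1 library (adjusted p up to 0.125). In the mean over times Fads2 differed by -0.40, the lowest of the 7 fatty acid genes, and did not pass. The other 4 tested genes passed in no genotype comparison. Fatty acid synthase (Fasn) had a mean difference of -0.02 (95% interval -0.21 to 0.17), the stearoyl-CoA desaturase Scd2 of -0.04 (-0.20 to 0.12), the elongase Elovl6 of -0.04 (-0.34 to 0.27) and the desaturase Fads1 of -0.19 (-0.45 to 0.06). The 12 sterol enzymes called lower were picked by that call, so setting these intervals beside their mean differences cannot show a difference between roles. Of the 4 sterol enzymes not called in the mean, the intervals of Fasn and Scd2 hold the mean differences of Mvd, Nsdhl and Ebp but not of Idi1. The intervals of Elovl6 and Fads1 reach the mean differences of Lss (-0.29), Acat2 (-0.30) and Dhcr7 (-0.33). That of Fads1 also reaches those of Cyp51 (-0.38), Hsd17b7 (-0.39), Fdft1 (-0.42) and Fdps (-0.42). A difference between the roles was not tested.

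The efflux pump ABCA1 loads cholesterol on to apolipoproteins, and its gene had the largest genotype difference of the set. At 0 h, Abca1 had 237, 236 and 329 in HET and 1116, 969, 957 and 974 in KO. At 3 h, Abca1 had 140.3, 234 and 249 in HET and 1013, 639 and 382 in KO. All KO libraries exceeded all HET libraries, with KO spread widely at 3 h. At 24 h, Abca1 had 22.2, 26.6 and 69.7 in HET and 330.1, 422 and 566 in KO. At 48 h, Abca1 had 195, 127 and 995 in HET and 1795, 2296 and 928 in KO. The groups were apart at 24 h and overlapped at 48 h through HET replicate 3. The difference was 1.92 at 0 h (SE 0.51, adjusted p = 0.0107), 3.59 at 24 h (SE 0.55, adjusted p = 0.000213, 12.1-fold) and 2.42 at 48 h (SE 0.55, adjusted p = 0.00621). At 3 h it was 1.63 (adjusted p = 0.068), and in the mean 2.39 (SE 0.27, adjusted p = 6.96e-07). The 48 h call was lost without HET replicate 2 of that time (adjusted p = 0.0504) and with lane as a covariate (1.03, adjusted p = 0.361).

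ABCG1 exports sterol to lipoprotein particles. At 0 h, Abcg1 had 3885, 4311 and 4026 in HET and 5451, 5500.3, 6154 and 5306 in KO. At 3 h, Abcg1 had 1512, 2479 and 2478 in HET and 3131, 2555 and 2036 in KO. KO was higher without overlap at 0 h, and the genotypes overlapped at 3 h. At 24 h, Abcg1 had 1189.6, 1476 and 1219 in HET and 2278, 2773 and 3533 in KO. At 48 h, Abcg1 had 2756, 3714 and 5482 in HET and 4510.5, 5974 and 3465 in KO. KO was again higher without overlap at 24 h. The difference was 1.13 at 24 h (SE 0.24, adjusted p = 0.00352) and 0.53 in the mean (SE 0.12, adjusted p = 0.00121), while at 0 h it was 0.46 (adjusted p = 0.143). LXRβ (Nr1h2) and the LXR target Mylip, a ubiquitin ligase for lipoprotein receptors, passed in no genotype comparison, with means of -0.08 (-0.27 to 0.12) and 0.08 (-0.18 to 0.35).

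Macrophages express Abca1 and Abcg1 strongly, so macrophage genes are given beside them. The 6 macrophage genes summed to 621 to 698 normalised counts in HET and 356 to 1468 in KO at 0 h, and to 123 to 319 in HET and 403 to 464 in KO at 24 h. At 3 h the sums were 438 to 543 in HET and 471 to 969 in KO, and at 48 h 115 to 341 and 241 to 486. None of the 6 passed at a single time, and Adgre1 and C1qa were higher in KO in the mean over times (0.62, adjusted p = 0.0346, and 0.67, adjusted p = 0.0413). The 5 dendritic cell genes summed to 32.9 to 76.5 in HET and 110.1 to 263 in KO at 24 h. In HET from 3 to 24 h, when Abca1 fell, 3 of the 6 macrophage genes fell as well (Adgre1, Csf1r and C1qa, all genes: 22.3% lower). In HET from 0 to 48 h, 5 of the 6 were lower (all genes: 20.8% lower), while Abca1 was not called. At 0 h, when Abca1 was higher in KO, 5 of the 6 had a genotype difference below 0 (median -0.19). The part of these cells in the efflux result was not tested.

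From 0 to 3 h after anti-CD3ε the enzymes of sterol synthesis went in opposite directions. In HET from 0 to 3 h, 9 members were higher and 6 lower (all genes: 18.4% higher, 18.5% lower), and the sterol enzymes split into 5 higher and 5 lower. Cyp51 (1.25, adjusted p = 0.000795), Hsd17b7 (1.16, adjusted p = 0.000756), Sc5d (1.01, adjusted p = 0.000301), Sqle (0.98, adjusted p = 0.0292) and Msmo1 (0.78, adjusted p = 0.00908) rose. Mvk (-1.32, adjusted p = 1.67e-05), Dhcr7 (-1.14, adjusted p = 2.94e-05), Mvd (-1.03, adjusted p = 0.00267), Tm7sf2 (-0.90, adjusted p = 0.00114) and Acat2 (-0.77, adjusted p = 0.00101) fell. Insig1 (1.42, adjusted p = 0.000631), Srebf2 (0.39, adjusted p = 0.0477), Fasn (0.79, adjusted p = 0.00275) and Elovl6 (0.99, adjusted p = 0.0136) rose, and Abcg1 (-0.95, adjusted p = 0.00368) fell. In KO, 5 members were higher and 3 lower (all genes: 13.3% higher, 11.3% lower). They were Hsd17b7 (1.19), Cyp51 (0.96), Insig1 (0.80), Fasn (0.66) and Srebf2 (0.66), and, lower, Mvk (-0.72), Acat2 (-0.73) and Abcg1 (-1.14). Sex and lane changed together with time in this step. With lane as a covariate 3 members were higher and 6 lower in HET, and 6 of the 15 calls were kept (Mvk, Cyp51, Tm7sf2, Hsd17b7, Dhcr7 and Acat2). The differences of Sqle and Srebf2 then fell to 0.39 (adjusted p = 0.573) and 0.08 (adjusted p = 0.864), and Msmo1, Sc5d, Insig1, Fasn, Elovl6, Mvd and Abcg1 did not pass either. In KO, 3 were higher and 0 lower, and 2 of the 8 calls were kept (Cyp51 and Hsd17b7). That fit ties lane 1 to lane 3 only through KO replicate 3 of 48 h, and to lane 2 only through HET replicate 3 of 48 h. It cannot tell lane from these mice. The call of Srebf2 in HET was lost without any 1 of 6 libraries (adjusted p up to 0.146). In HET, Sqle was lost in 4 of 6 such fits (adjusted p up to 0.0815) and after quantile normalization (adjusted p = 0.0543). Elovl6 was lost in 3 of 6 (adjusted p up to 0.0701) and Msmo1 in 1 of 6 (adjusted p = 0.0597).

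**Figure D4:**
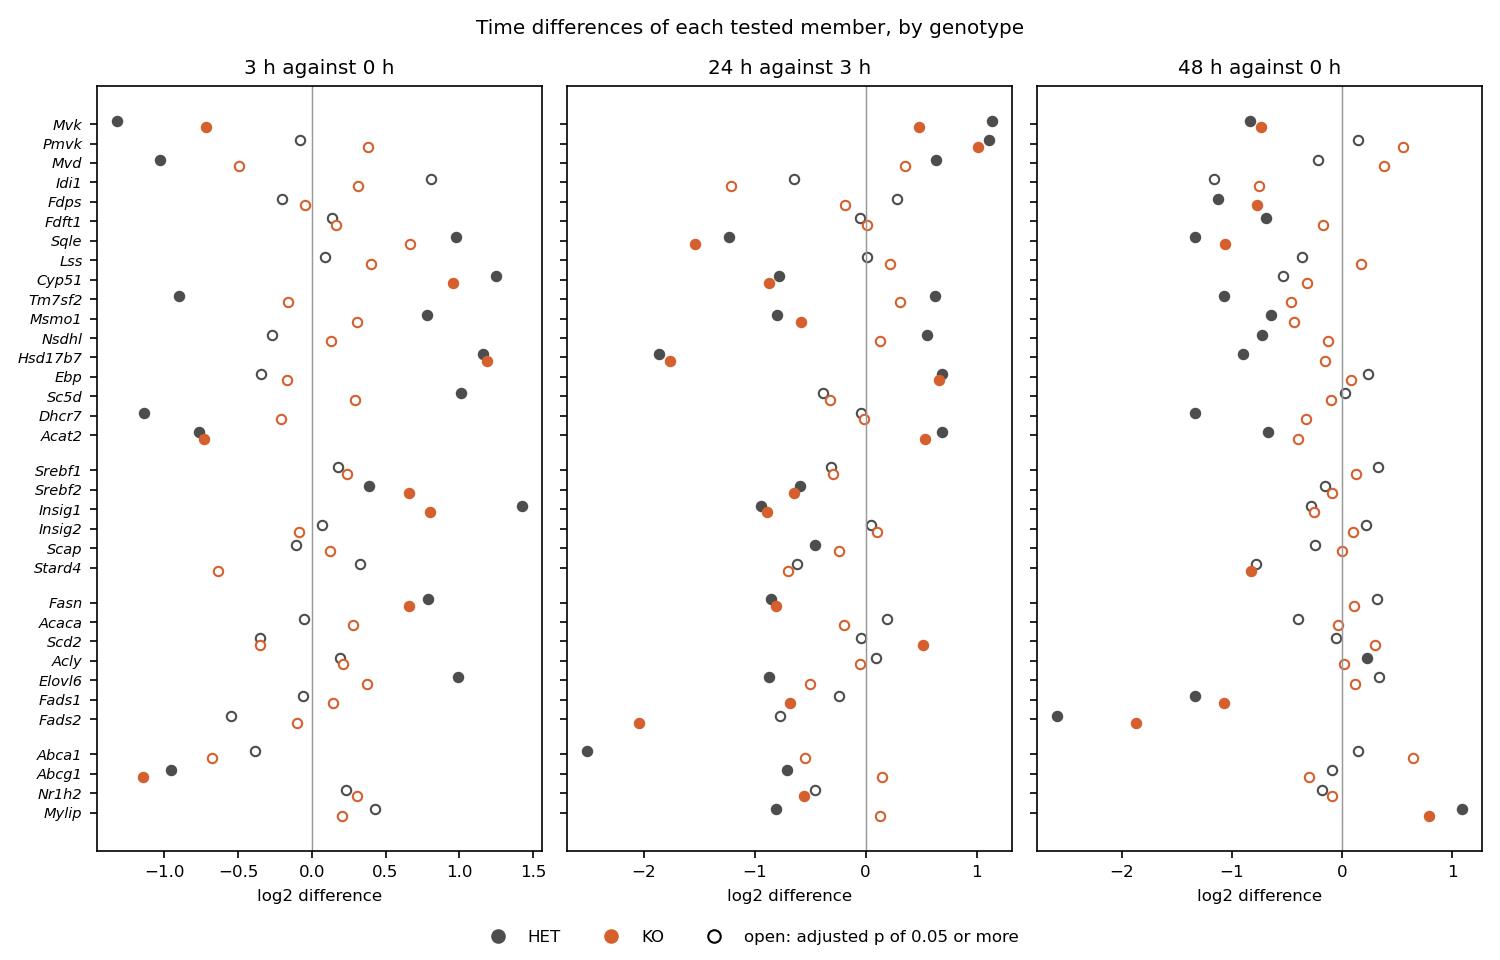
Log2 difference (x axis) between 2 times for each tested member (y axis, by role), in 3 panels for 3 h against 0 h, 24 h against 3 h and 48 h against 0 h, with HET in grey, KO in orange and filled points where the adjusted p was under 0.05. Hsd17b7, Cyp51, Insig1 and Fasn rise at 3 h and fall by 24 h in both genotypes, and Fads2 is the leftmost HET point at 48 h (-2.58).

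From 3 to 24 h the sex of the mice did not change, while the lanes went from 3, 3 and 4 to 4, 4 and 3 in HET and from lane 4 alone to 3, 3 and 4 in KO. With lane as a covariate 19 of the 19 calls in HET and 14 of the 15 in KO were kept, Nr1h2 in KO being lost (adjusted p = 0.108). In HET, 7 members were higher and 12 lower (all genes: 21.3% higher, 22.3% lower), and in KO 5 and 10 (all genes: 18.4% higher, 18.7% lower). Hsd17b7 fell by 1.86 in HET (adjusted p = 7.18e-06) and by 1.76 in KO (adjusted p = 1.41e-05), and Sqle fell by 1.24 (adjusted p = 0.00627) and 1.54 (adjusted p = 0.0015). Cyp51, Msmo1, Insig1, Srebf2 and Fasn also fell in both genotypes, by 0.58 to 0.94. Pmvk (1.11 in HET, 1.01 in KO), Mvk (1.14 and 0.48), Acat2 (0.69 and 0.54) and Ebp (0.69 and 0.66) rose in both. In HET, 3 of the 4 efflux genes fell, led by Abca1 (-2.51, adjusted p = 0.00112). The calls of Abcg1 (-0.70) and Mylip (-0.80) were lost in 4 and 3 of 6 fits without 1 library (adjusted p up to 0.0942 and 0.0961) and without the 3 libraries together (adjusted p = 0.123 and 0.105). In KO, Abca1 differed by -0.55 (adjusted p = 0.459) and Nr1h2 was the 1 efflux gene that passed (-0.56, adjusted p = 0.0248). Fads2 fell by 2.04 in KO (adjusted p = 0.00041), and its difference in HET was -0.77 (adjusted p = 0.114). None of these 3 genes passed the interaction test, so a difference between genotypes in their course was not shown. The rises of Mvd in HET and of Mvk in KO were lost in 5 of 6 and 6 of 6 fits without 1 library (adjusted p up to 0.295 and 0.161).

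At 48 h, injected mice were compared with uninjected mice of the same sex. In HET, 12 members were lower and 2 higher (all genes: 20.8% lower, 21.6% higher), and 10 of the 17 sterol enzymes were lower, with 0 higher and a median of -0.69. The largest were Dhcr7 (-1.33, adjusted p = 2.04e-06), Sqle (-1.33, adjusted p = 0.00346), Fdps (-1.13, adjusted p = 0.00195) and Tm7sf2 (-1.07, adjusted p = 0.000124). Fads2 (-2.58, adjusted p = 1.84e-05) and Fads1 (-1.33, adjusted p = 0.000181) fell as well, while Acly (0.23, adjusted p = 0.0423) and Mylip (1.09, adjusted p = 0.00176) rose. The call of Acly was lost in 12 of 19 alternatives, with a difference of 0.04 after quantile normalization (adjusted p = 0.688). In KO, 6 members were lower and 1 higher (all genes: 12.5% lower, 14.3% higher), and 3 of the 17 sterol enzymes were lower (median -0.32): Sqle (-1.06), Fdps (-0.77) and Mvk (-0.74). Fads2 (-1.87), Fads1 (-1.07) and Stard4 (-0.83) were also lower and Mylip (0.79) was higher. The count in KO was 3 without KO replicate 2 and 4 without KO replicate 1 of 48 h. With lane as a covariate 1 member passed in KO, which was none of the 7, and the differences of Fdps and Sqle turned to 0.49 and 0.28 (adjusted p = 0.38 and 0.874). In this fit the offset between lanes 1 and 2 came only from HET replicate 3 of 48 h, so lane cannot be told from that mouse.

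At 48 h 2 of the 6 libraries stood apart. HET replicate 3 had the lowest mean level of sterol enzymes of all 25 libraries (-1.15) and KO replicate 2 the next (-0.97). The same 2 libraries had the lowest summed level of the 16 proliferation genes at 48 h, 70010.4 and 69175 normalised counts against 122937 to 162675 in the other 4. HET replicate 3 also had 995 normalised counts of Abca1, against 195 and 127 in the other HET libraries. Whether proliferation has a part in these levels was not tested.

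**Figure D5:**
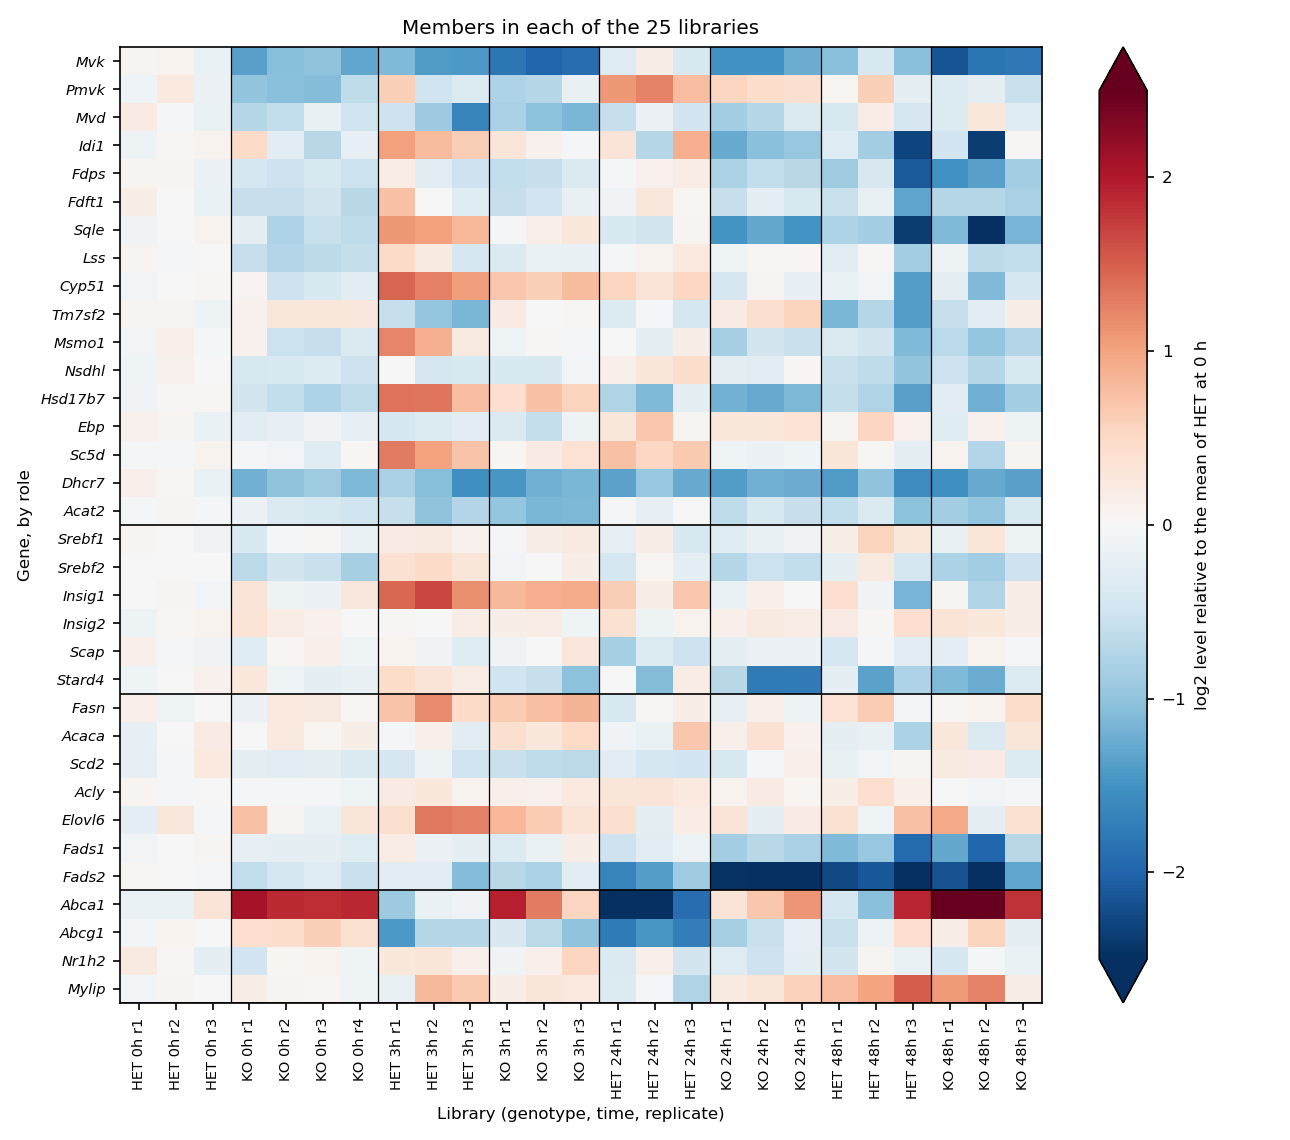
Each tested member (rows, by role) in each of the 25 libraries (columns, by time and genotype), coloured by its log2 level relative to the mean of HET at 0 h, with black lines between groups and roles and colours capped at 2.5. Mvk and Dhcr7 are blue in every KO column. Dhcr7 is also blue in every HET column after 0 h, and Mvk in the HET columns at 3 and 48 h. Abca1 is red in the KO columns at 0 h, and HET 48h r3 and KO 48h r2 have the lowest mean over the sterol enzymes.

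The 16 proliferation genes were also followed as a list. At 24 h, 4 of the 16 were lower in KO and 0 higher (all genes: 5.45% lower, 7.03% higher), with a median of -0.44. All 4 were licensing or replication factors (Mcm2, Mcm4, Mcm6 and Pcna). The summed level of all 16 was 173125 to 250049 in HET and 142274 to 144598 in KO. At 0, 3 and 48 h 0 of the 16 passed, with medians of 0.31, 0.28 and -0.03, while the sterol enzymes had medians of -0.47, -0.48 and -0.08. In HET from 3 to 24 h, 12 of 16 proliferation genes rose (all genes: 21.3% higher).

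Other genes of the same pathways were counted from a list of 21, of which 19 were tested. In the mean over times 7 were lower and 6 higher in KO, with a median of -0.03 (all genes: 20.5% lower, 20% higher). The largest in each direction were Fabp5, a fatty acid binding protein (-0.80, SE 0.15, adjusted p = 0.000276), and Hsd17b12, a reductase of fatty acid elongation (0.51, SE 0.06, adjusted p = 8.07e-07). At 0 h Hsd17b12 had 1487 ± 29.7 normalised counts in HET (SD, n = 3) and 2704 ± 229 in KO (SD, n = 4), and Fabp5 had 1672 ± 174 and 758 ± 33.9. Of the same list 3 were higher and 4 lower at 0 h (all genes: 11% and 11.1%), 0 and 1 at 3 h (5.75% and 3.43%), 4 and 2 at 24 h (7.03% and 5.45%), and 1 and 2 at 48 h (6.13% and 6.95%).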

How the data were processed

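Whole transcripts were measured by stranded poly(A) mRNA-seq (75-base single-end reads) in 25 libraries. The authors trimmed reads with Trimmomatic 0.36, aligned them with STAR 2.5.2a, estimated gene counts with RSEM 1.2.31 (GRCm38) and deposited 1 table of counts divided by DESeq2 1.18.1 size factors, a normalised signal. Whole reads were recovered for every library (tolerance 0.001).

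Members and lists were chosen with earlier results of these data known. The minimum mean was 10, and the genes above it were fitted in limma 3.58.1 (R 4.3.3) on log2(value + 1), 1 fit of 8 group means with a trended variance, and Benjamini-Hochberg adjustment at 0.05 within each comparison. A fold change is on this scale. Tests ran over 14141 genes and were checked on simulated data. Alternatives were other pseudocounts, filters and scalings, lane as a covariate, a replicate block, groups fitted alone, each library left out, edgeR 4.0.16 and DESeq2 1.42.0. Each library is 1 mouse of 1 experiment. No 2 replicates agreed within sampling noise (chi-square per degree of freedom at least 22.0). Values in every library are given for members called at 2 or more times or in the mean, and for the 4 largest time changes. All 36 members could be named.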

Additional observations from a re-analysis of the deposited data

Results flagged for a closer look

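In KO at 0 h, replicate 1 stood apart from the other 3 libraries for 2 of the 35 members. For Tm7sf2 it had 598 normalised counts against 669.7, 672 and 678, a gap of 0.894 of the whole range. For Abca1 it had 1116 against 957, 969 and 974, a gap of 0.898. Only this group had the 4 libraries the comparison needs, and chance flags about 1 group in 20. In both genes the replicate lay above every HET library of that time.

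The genotype difference of Dhcr7 differed between times (limma F test of the interaction, adjusted p = 0.0363), from -1.06 at 0 h to -0.05 at 48 h. At 0 h genotype and sequencing lane cannot be told apart.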

How the results depend on the processing

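Of 1541 values of single genes under alternatives other than leaving out 1 library, 1425 kept their direction and side of the threshold, 114 kept only their direction and 2 reversed. Without 1 library, 960 of 1103 kept both and 143 only their direction. With sequencing lane as a covariate the counts of members called were 14 for KO against HET at 0 h, 16 at 24 h, 1 at 48 h, 9 for HET and 3 for KO at 3 h against 0 h, and 1 for KO at 48 h against 0 h, where Fdps (0.487) and Sqle (0.276) reversed. Apart from 24 h, these counts rest on replicate 3 of HET or of KO at 48 h, from which lane cannot be told. Fits of only the groups compared called 16 at 0 h, 2 at 3 h (0 of the 4 reported), 0 at 48 h (limma, with 4 at an unadjusted p under 0.05, and 4 in edgeR and 5 in DESeq2 over all groups), 10 for HET at 24 h against 3 h and 14 for KO at 3 h against 0 h. A common total gave 2 at 3 h. DESeq2 gave 14 at 24 h. Leaving out 3 libraries together gave 5 at 24 h. A common upper quartile moved the median of all genes by -0.104 for HET at 48 h against 0 h. The number of all genes called changed between fits as well. At 0 h it was 665 with lane as a covariate and 4776 in the fit of the groups compared, against 3124 in the main fit. At 3 h it was 275 in the fit of the groups compared and 1331 with a common total, against 1298. Counts of members from different fits therefore stand on different backgrounds. The cause of these changes was not tested.

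Same-numbered libraries did not deviate together (correlations -0.197 to 0.205), so the numbers do not pair them. With a replicate block the counts were 6, 4, 8 and 4 at 0, 3, 24 and 48 h, 18 in the mean, and 0 in the interaction (limma, with 4 at an unadjusted p under 0.05, and 1 in edgeR and in DESeq2).

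Leaving out 1 library, the counts ranged from 5 to 7 at 0 h, 2 to 3 at 3 h, 4 to 11 at 24 h, 2 to 6 at 48 h and 18 to 23 in the mean. For HET they ranged from 12 to 14, 14 to 17 and 11 to 17 at 3 against 0 h, 24 against 3 h and 48 against 0 h, and for KO from 7 to 8, 10 to 13 and 3 to 10. The count at 3 h was 2 without HET replicate 1 or 2 or any KO replicate, at 24 h 4 without HET replicate 3 or KO replicate 2 or 3, and at 48 h 2 without HET replicate 2. The interaction count ranged from 0 to 3, and was 0 without any HET replicate or KO replicate 1, 2 or 4 of 0 h, KO replicate 2 or 3 of 3 h, HET replicate 1 or any KO replicate of 24 h, or HET replicate 3 of 48 h. Among time calls, Msmo1 in KO from 3 to 24 h was lost in 6 of 6 such fits, Stard4 in KO from 0 to 48 h in 6 of 7, Insig1 in KO from 0 to 3 h in 5 of 7, Fads1 in KO from 3 to 24 h in 5 of 6 and Acly in HET from 0 to 48 h in 4 of 6. With 3 or 4 mice a group, a p above the threshold does not show that genotypes were alike.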
